A study of Mus musculus with 3 samples.

Results

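The regions described here were the broadest stretches of open chromatin shared by all 3 ATAC-seq libraries of a mouse cortical neuron study. Peaks of the 3 deposited lists that overlapped by at least 1 bp were merged, into 204313 regions, and 62435 of them held a peak from every library. A region was called broad if its widest peak measured at least 1500 bp in each library, and 464 regions met this rule, or 0.743% of the 62435. Members were thus chosen by measured peak width, and widths are given as a description without a test. The libraries were 1 of corticospinal motor neurons (CSMN) and 2 of callosal projection neurons (CPN 1 and CPN 2), each made from 50000 viable sorted cells of mouse brain. The labels used here state no treatment, strain, genotype, age, sex or sorting marker. With a single CSMN library there was no replicate check on any difference between the cell types, and the gap between CPN 1 and CPN 2 was the only measure of spread between libraries.

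ATAC-seq uses a transposase that inserts adapters into DNA not covered by nucleosomes, so a peak marks accessible chromatin at a promoter, an enhancer or an insulator. Promoters rich in CpG dinucleotides are commonly nucleosome-depleted in many cell types, and broad promoter domains of open or active chromatin have been described at genes of cell identity and at regulatory genes. CSMN of layer V project to the spinal cord and depend on the transcription factor Fezf2 and its target Bcl11b, whereas CPN connect the hemispheres through the corpus callosum.

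The DNA upstream of 6 of the broadest regions is shown with that of a pair of narrow ones, because base composition differed between broad and narrow start regions. Each sequence is the 250 bases before the annotated start, 5′ to 3′ on the gene's strand, from RefSeq (GRCm38.p6, the build named mm10), with every CpG in capitals. The first 6 are those of the broadest regions at a single gene whose annotated start is also the outer end of the gene. H4c18, a histone H4 gene of a multi-copy family whose reads can be split between copies, and Vps41, a subunit of an endosomal tethering complex, had the strongest peaks by the same rule among start regions under 500 bp in every library.
Chst2: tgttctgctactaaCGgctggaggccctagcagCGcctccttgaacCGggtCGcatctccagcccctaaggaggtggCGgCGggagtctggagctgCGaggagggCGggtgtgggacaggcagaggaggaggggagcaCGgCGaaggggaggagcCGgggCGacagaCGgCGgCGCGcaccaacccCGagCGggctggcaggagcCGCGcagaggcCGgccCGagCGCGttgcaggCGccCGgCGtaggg
Tent5a: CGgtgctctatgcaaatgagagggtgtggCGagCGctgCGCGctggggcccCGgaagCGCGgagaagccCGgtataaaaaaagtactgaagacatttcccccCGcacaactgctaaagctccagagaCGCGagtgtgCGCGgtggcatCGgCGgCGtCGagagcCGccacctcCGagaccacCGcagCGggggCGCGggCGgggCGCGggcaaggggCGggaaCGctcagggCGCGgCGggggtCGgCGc
Sp3: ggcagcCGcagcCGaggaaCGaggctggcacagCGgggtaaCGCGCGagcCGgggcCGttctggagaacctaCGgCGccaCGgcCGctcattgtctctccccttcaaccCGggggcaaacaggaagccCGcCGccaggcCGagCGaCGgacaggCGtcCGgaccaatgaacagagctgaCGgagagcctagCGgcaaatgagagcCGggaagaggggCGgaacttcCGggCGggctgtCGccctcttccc
Sox11: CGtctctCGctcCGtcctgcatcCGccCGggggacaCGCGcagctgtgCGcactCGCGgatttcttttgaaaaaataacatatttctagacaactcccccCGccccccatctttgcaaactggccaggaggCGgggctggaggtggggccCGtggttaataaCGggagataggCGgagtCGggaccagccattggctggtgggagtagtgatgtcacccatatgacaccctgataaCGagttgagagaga
Phlpp1: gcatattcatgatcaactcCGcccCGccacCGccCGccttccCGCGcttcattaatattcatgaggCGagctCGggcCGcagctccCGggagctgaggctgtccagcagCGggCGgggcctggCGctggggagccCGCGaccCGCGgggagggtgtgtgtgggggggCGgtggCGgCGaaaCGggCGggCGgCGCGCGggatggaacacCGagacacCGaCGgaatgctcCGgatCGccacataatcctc
Pde5a: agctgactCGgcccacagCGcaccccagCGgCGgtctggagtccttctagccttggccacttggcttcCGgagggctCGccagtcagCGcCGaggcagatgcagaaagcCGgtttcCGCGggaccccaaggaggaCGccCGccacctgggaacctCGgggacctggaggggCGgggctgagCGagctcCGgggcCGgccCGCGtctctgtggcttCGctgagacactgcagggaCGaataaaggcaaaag
H4c18: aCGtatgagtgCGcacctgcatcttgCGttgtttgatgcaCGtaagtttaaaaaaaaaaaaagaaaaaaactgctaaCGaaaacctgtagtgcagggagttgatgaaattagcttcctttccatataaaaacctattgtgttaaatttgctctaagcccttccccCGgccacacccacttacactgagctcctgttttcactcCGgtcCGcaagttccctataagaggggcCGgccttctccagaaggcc
Vps41: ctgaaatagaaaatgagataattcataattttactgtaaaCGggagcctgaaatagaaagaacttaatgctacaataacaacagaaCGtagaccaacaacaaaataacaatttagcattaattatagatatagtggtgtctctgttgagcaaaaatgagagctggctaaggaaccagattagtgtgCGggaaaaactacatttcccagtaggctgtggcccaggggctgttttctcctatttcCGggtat
The windows lie at chr9:95407271-95407520 on the minus strand for Chst2, chr9:85327151-85327400 on the minus strand for Tent5a and chr2:72980447-72980696 on the minus strand for Sp3. Those of Sox11, Phlpp1 and Pde5a lie at chr12:27342719-27342968 on the minus strand, chr1:106171619-106171868 on the plus strand and chr3:122728908-122729157 on the plus strand. The narrow pair lies at chr13:21832198-21832447 on the minus strand for H4c18 and chr13:18717042-18717291 on the plus strand for Vps41. The broad group held 17 CpGs in the window of Sox11, 22 in Pde5a, 27 in Chst2, 28 in Sp3, 31 in Phlpp1 and 34 in Tent5a. The narrow pair held 9 in H4c18 and 4 in Vps41. GC content was 58.0% in Sox11 and between 68.4% and 72.8% in the other broad windows, against 45.2% in H4c18 and 37.6% in Vps41.

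The lists differed in how many wide peaks they held, which bears on every count below. Peaks of at least 1500 bp numbered 1433 of 98067 in CSMN, 1824 of 134018 in CPN 1 and 575 of 158779 in CPN 2. CPN 2, the longest list, thus had the fewest wide peaks, and its median peak width was 203 bp, against 279 bp in CSMN and 293 bp in CPN 1. Both CSMN and CPN 1 reached 1500 bp in 1059 regions, and 595 of these missed the rule by CPN 2 alone. CSMN alone decided 89 regions and CPN 1 alone decided 7. Of the regions that were wide in CPN 2, 80.7% were members, against 32.4% in CSMN and 25.4% in CPN 1.

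Member widths had a median of 1800 bp in CSMN (quartiles 1646 and 1982), 1830 bp in CPN 1 (1678 and 2011) and 1667 bp in CPN 2 (1576 and 1818). The other shared regions had medians of 384 bp, 489 bp and 378 bp in the same libraries. In most members a single peak covered the region, as was so in 443 members in CSMN, 456 in CPN 1 and 403 in CPN 2. Just inside the threshold, Kctd1 measured 1562 bp in CSMN, 1661 bp in CPN 1 and 1500 bp in CPN 2. Gpr176, Gabpb1, Fhdc1 and Kcna2, the last a voltage-gated potassium channel gene, also had a smallest width of 1500 bp. Just outside it stood Eif4g2 at 1499 bp, the promoter shared by Fzd4 and Tmem135 at 1498 bp, that of Jkamp and L3hypdh at 1497 bp, Dcun1d1 at 1497 bp, and Satb1, a chromatin organiser, at 1495 bp, all in CPN 2.

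The 3 widest members were not at protein-coding genes of the nucleus. A stretch of the mitochondrial genome with both of its ribosomal RNA genes, ND1, ND2 and part of COX1 (chrM:55-6453) measured 6370 bp in CSMN, 6375 bp in CPN 1 and 6398 bp in CPN 2. A second mitochondrial stretch, from within ND4 past CYTB (chrM:10958-16144) measured 5123 bp, 5152 bp and 5187 bp. Next came chr17:39843034-39848784, which spans Rn18s-rs5, annotated as a pseudogene of 18S ribosomal RNA, with widest peaks of 3142 bp in CSMN, 4248 bp in CPN 1 and 4243 bp in CPN 2. Mitochondrial DNA is present in many copies per cell and ribosomal RNA genes are repeated in the genome, so reads of several copies can fall together there. The folds of these 3 regions were low for members, at 2.15, 2.77 and 2.56 in CSMN. Leaving them out gave 461 members, of which 72.7% held a gene start and 92.2% lay at a gene start or end, close to the shares reported below.

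Among single-copy genes, Fat3, which encodes an atypical cadherin, held the widest region (chr9:16499669-16502631), with 2920 bp in CSMN, 2942 bp in CPN 1 and 2963 bp in CPN 2. Rims2, a scaffold of the presynaptic active zone, had a region of 2795 bp, 2778 bp and 2714 bp at chr15:39196651-39199450. Cpeb2, which binds cytoplasmic polyadenylation elements in mRNA, had 2904 bp, 2834 bp and 2588 bp at chr5:43232451-43235363. At Fat3 and Rims2 the 3 libraries lay close together, and at Cpeb2 CPN 2 was the narrowest. Chst2, a carbohydrate sulfotransferase, followed with 2484 bp in CSMN, 2366 bp in CPN 1 and 2335 bp in CPN 2 at chr9:95405398-95407881. Tent5a, a poly(A) polymerase, measured 2573 bp, 2414 bp and 2308 bp at chr9:85326248-85328820. Sp3, a zinc finger factor that binds GC boxes, measured 2291 bp, 2532 bp and 2362 bp at chr2:72978547-72981078. CPN 1 was thus the widest library at Sp3, and CSMN at Chst2 and Tent5a.

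Of the other regions among the 25 broadest, that of Kcnn2, a calcium-activated potassium channel gene, measured 2567 bp in CSMN, 2469 bp in CPN 1 and 2266 bp in CPN 2. Cnr1, the cannabinoid receptor, measured 2351 bp, 2200 bp and 2157 bp. Sox11, an HMG-box factor of immature neurons, measured 2131 bp, 2149 bp and 2115 bp. Slc6a15, a neutral amino acid transporter, had a smallest width of 2107 bp, Cadm1, a synaptic adhesion molecule, 2099 bp, and Gpc6, a glypican, 2064 bp. Phlpp1, an Akt phosphatase, had a smallest width of 2092 bp, Agbl5, a tubulin carboxypeptidase, 2129 bp, and Fmn2, an actin-nucleating formin, 2075 bp. Elf2, an ETS factor, had 2089 bp, Rai1 2081 bp, Pde5a, a cyclic GMP phosphodiesterase, 2067 bp, Nexmif 2112 bp and Tmem178b 2245 bp. A region at the divergent starts of Zfp91 and Lpxn had 2162 bp.

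**Figure D1:**
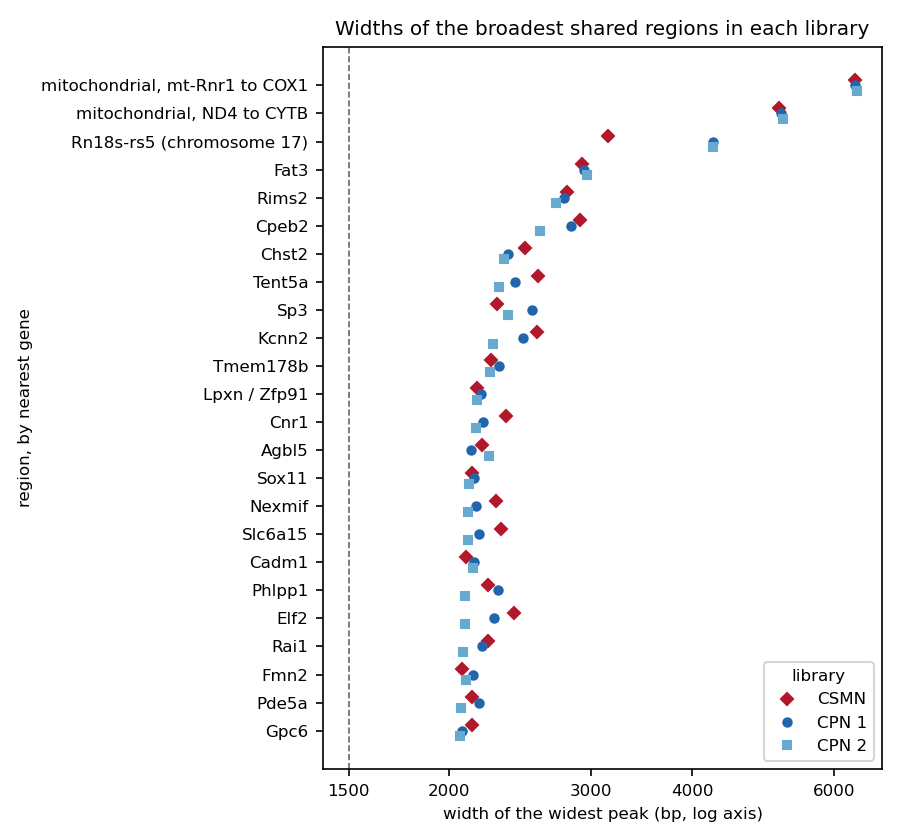
Width in bp (log axis) of the widest peak of 24 of the 25 broadest shared regions in CSMN (diamonds), CPN 1 (circles) and CPN 2 (squares), ordered down the page by the smallest of the 3 widths. The dashed line marks 1500 bp. Fat3 leads the nuclear single-copy genes with 2920 bp to 2963 bp.

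Broad regions lay mostly at gene starts. An annotated start of a protein-coding gene lay inside 335 members, or 72.2% (Wilson 95% interval 68.0% to 76.1%), against 16.9% of all shared regions and 16.5% of the other shared regions. The difference was 55.7 percentage points (Newcombe 95% interval 51.5 to 59.6). Counting any protein-coding start or gene end within 1000 bp, 427 members qualified, among them the 2 mitochondrial regions. This was 92.0% (89.2% to 94.2%), against 25.7% of all shared regions and 25.2% of the others (difference 66.8 points, 64.0 to 69.0). These intervals cover counting error only, since regions are not independent replicates of a condition. Membership used width alone, and position was not part of the rule. The 2 are not independent, however, because a wider region covers more bases and is more likely to hold or lie near a start. How much of each difference follows from width was not estimated.

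Strand and start were known for 17492 of 21900 protein-coding genes in the reference used here. Where the strand was unknown, both gene ends were counted together, and 75 members (16.2%) lay at an end of such a gene. A further 6 lay within 1000 bp of an annotated start without holding it, among them Cux1, an upper-layer homeobox gene, at 53 bp. Another 9 lay at the outer 5′ end of a gene whose tabled start was elsewhere, including Bach2, Klf12, Sptbn1, Setd5, Tenm2, Adgrl2 and Zbtb20. No member was counted at the 3′ end of a gene of known strand away from any start, against 997 (1.61%) of the other regions, while the 75 at genes of unknown strand could not be assigned to a start or a 3′ end. Inside a gene body but away from its ends lay 22 members (4.74%), against 35.9% of the others. Outside genes lay 12 members (2.59%), against 37.3% of the others. Of the members whose nearest gene end belonged to a gene with a known strand, 90.0% held the start. Exons, introns and UTRs were not distinguished, because no exon annotation was used here.

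Much of this pattern was shared with regions just below the threshold. The share holding a start was 1.76% of regions with a smallest width under 250 bp, 7.53% at 250 to 499 bp, 35.1% at 500 to 749 bp and 59.6% at 750 to 999 bp. It was 69.4% (67.5% to 71.3%) at 1000 to 1249 bp and 68.0% (65.0% to 70.9%) at 1250 to 1499 bp, and the interval of the members overlapped both. The share within 1000 bp of a start or end was 85.7% (84.2% to 87.1%) at 1000 to 1249 bp and 90.7% (88.7% to 92.4%) at 1250 to 1499 bp. The interval of the members, 89.2% to 94.2%, lay above that of the first of these classes and overlapped that of the second.

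**Figure D2:**
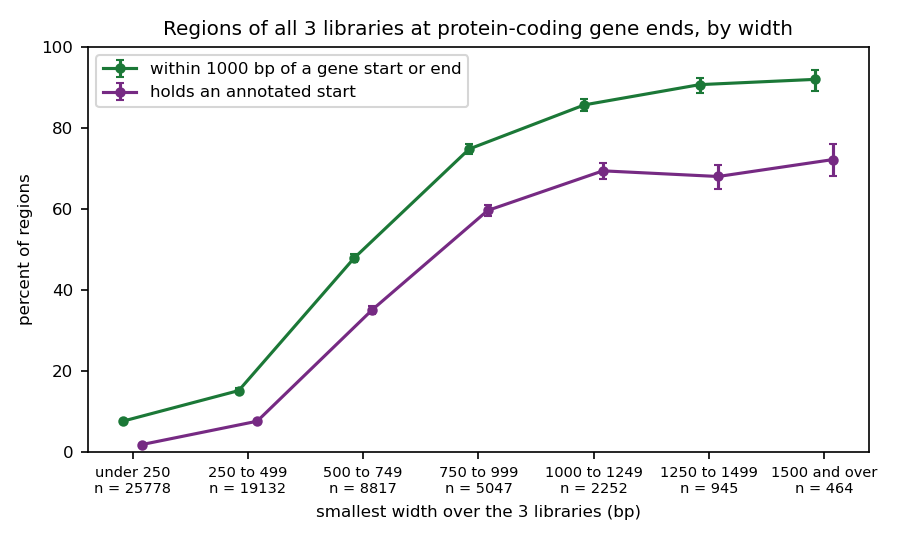
Percent of shared regions within 1000 bp of a protein-coding start or end (green) and percent holding an annotated start (purple), by the smallest width over the 3 libraries in bp, with Wilson 95% intervals and the number of regions in each class. Both shares are highest in the class of 1500 bp and over, at 92.0% and 72.2%, and the intervals of the start share, but not all those of the other share, overlap from 1000 bp upwards.

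Most start regions, members or not, held protein-coding starts of 1 gene. Of the 335 members that held a start, 295 (88.1%) did so, 31 (9.25%) held divergent starts and 9 (2.69%) convergent ones. The share with starts of 1 gene was lower than the 92.6% among the others (difference −4.55 points, −8.49 to −1.46). It was 89.0% at 1000 to 1499 bp (difference −0.930 points, −5.03 to 2.41). Divergent pairs made up 5.76% of start regions among the others (difference 3.49 points, 0.791 to 7.1) and 8.34% of those of 1000 to 1499 bp (difference 0.917 points, −2.01 to 4.66). The starts of the 31 pairs were 19 to 1107 bp apart, with a median of 199 bp. The widest pair, Zfp91 and Lpxn, had starts 70 bp apart, and Mrpl40, a mitochondrial ribosomal protein gene, and Hira, a histone chaperone gene, had starts 113 bp apart. At Uqcrh and Lrrc41 the gap was 199 bp, with widths of 1939 bp in CSMN, 2031 bp in CPN 1 and 2024 bp in CPN 2. No protein-coding gene had more than 1 member, so members were spread over as many loci: 5 lay closer than 100 kb to the next, and the median distance to the next was 3.49 Mb.

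Around the starts, members reached farther into the gene than upstream of it. In the 295 members with starts of 1 gene, the median reach downstream was 1172 bp in CSMN, 1161 bp in CPN 1 and 1082 bp in CPN 2. The median reach upstream was 653 bp, 658 bp and 601 bp in the same libraries. The downstream reach was the longer in 209 members in CSMN, 211 in CPN 1 and 208 in CPN 2, and in 197 (66.8%) it was so in every library. Start regions of 1000 to 1499 bp gave nearly the same share, at 66.7% of 1964. The summit had a median offset from the start of −13.0 bp in CSMN (quartiles −205 and 206), −29.0 bp in CPN 1 (−229 and 176) and −61.0 bp in CPN 2 (−212 and 70.5), where negative values are upstream.

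**Figure D3:**
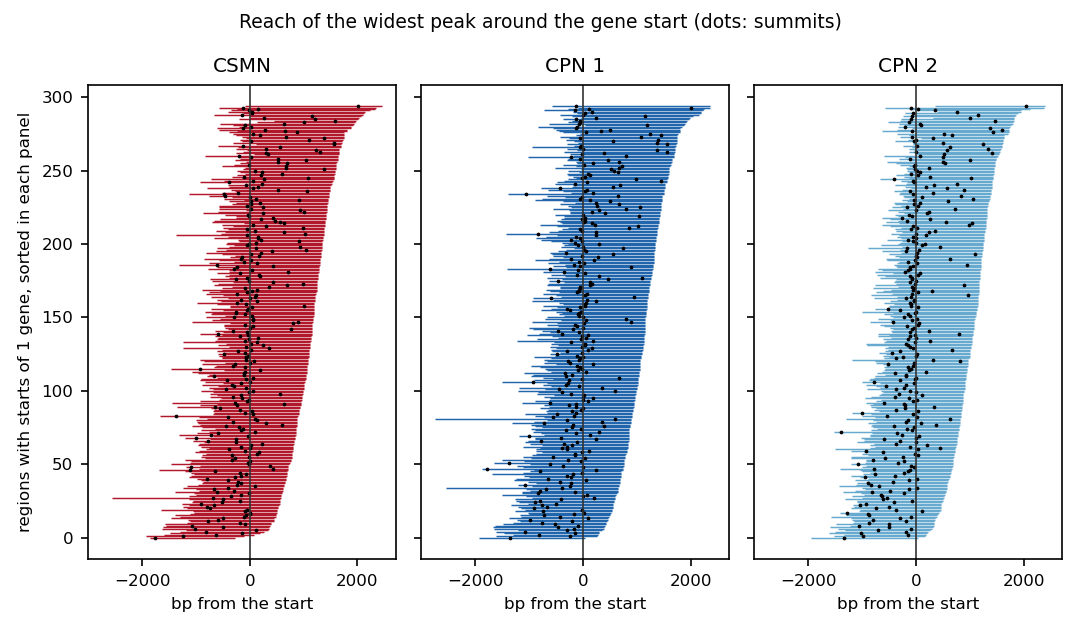
Reach of the widest peak around the annotated start, in bp along the direction of transcription, for the 295 members with starts of 1 gene, in CSMN, CPN 1 and CPN 2, each panel sorted by downstream reach. Lines span the peak and dots mark the summit. Lines extend farther to the right of the start in 209, 211 and 208 members.

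Genes whose start lay in a member were long. Their length had a median of 64.5 kb (n = 375 genes, quartiles 19.4 and 121), against 38.3 kb for genes with a start region of 1000 to 1499 bp and 24.8 kb for genes at all other shared regions. The median over all genes with a start in the reference table was 16.9 kb. Genes over 100 kb made up 32.8% of those with a member at the start, against 22.6% at 1000 to 1499 bp (difference 10.2 points, 5.34 to 15.4) and 14.3% at the others (difference 18.5 points, 13.9 to 23.5). Gene length was thus a property in which members differed from the width class next to them. Several tabled starts were given for 26.1% of these genes, against 24.8% at 1000 to 1499 bp, with intervals that overlapped.

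The promoters held by members were rich in CpG. Over the 300 bases from 250 before to 50 after the start, GC content had a median of 69.0% in members, 66.3% at 1000 to 1499 bp, 61.3% at 500 to 999 bp and 57.0% under 500 bp. The ratio of observed to expected CpG had a median of 0.864 in members, against 0.842, 0.775 and 0.573 in those classes. With a GC content of at least 55% and a ratio of at least 0.65, 295 of 375 promoters at members were CpG-rich (78.7%, 74.2% to 82.5%), against 38.3% of all genes in the table. The share at all other shared regions was 59.1% (difference 19.5 points, 15.0 to 23.5). At 1000 to 1499 bp it was 76.5%, a difference of 2.15 points whose interval ran from −2.57 to 6.36. Genes with no start in any shared region had 2.31%. The capitals of the printed windows follow the same order, with at least 17 CpGs in the 6 broad windows and at most 9 in the narrow pair. The classes overlap more than these few windows do. Over the 300 bases, members had a median of 30 CpGs (quartiles 20 and 40), and promoters under 500 bp a median of 13 (7 and 20). Among the broadest regions not printed, Tmem178b had 11 CpGs and Nexmif 8.

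**Figure D4:**
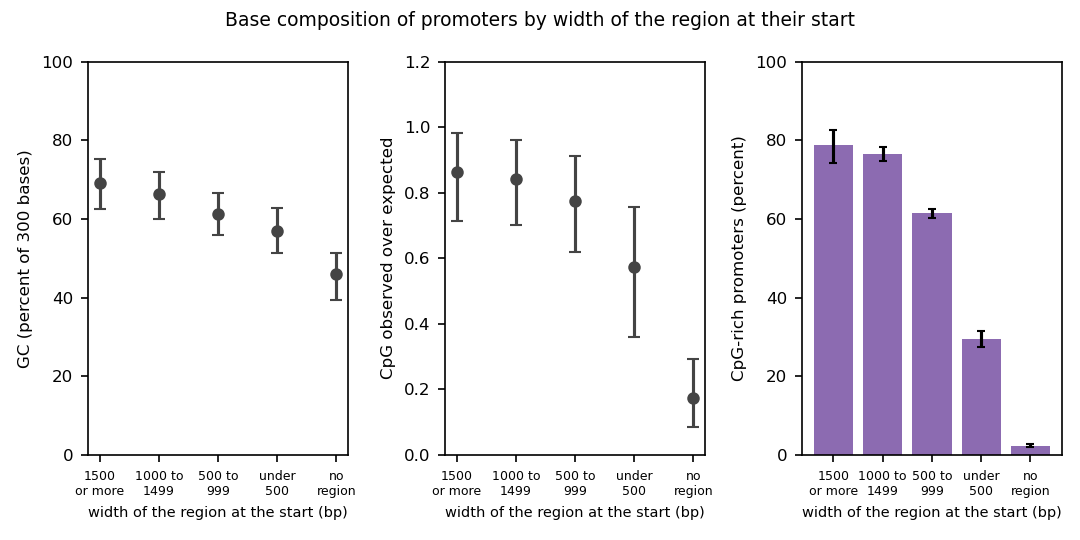
Base composition of promoters by the width class in bp of the shared region at their start, left to right from members to genes with no shared region. Points and bars in the first panels are medians and quartiles of GC percent and of the CpG ratio, and columns in the last panel are the percent of CpG-rich promoters with Wilson 95% intervals. Members lead with 69.0% GC, 0.864 and 78.7%.

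Exact letter strings were counted on both strands of the same windows. The GC box GGGCGG, which Sp1 and Sp3 bind, was in 78.9% of promoters at members, 67.2% at all other shared regions (difference 11.7 points, 7.24 to 15.7), 77.6% at 1000 to 1499 bp and 46.3% of all genes. The string CCAAT was in 30.1% at members and 39.0% at the others (difference −8.83 points, −13.3 to −3.92), with a difference to the class of 1000 to 1499 bp of −4.56 points (−9.38 to 0.613), and in 39.2% of all genes. The ETS string CCGGAAG was in 11.2% at members and 17.5% at the others (difference −6.27 points, −9.17 to −2.61), with a difference to 1000 to 1499 bp of −2.91 points (−6.06 to 0.923), and in 11.9% of all genes. The NRF1 core GCATGCGC was in 2.93% at members, 5.41% at the others and 6.03% at 1000 to 1499 bp (difference −3.10 points, −4.74 to −0.693), and in 3.61% of all genes. TATAAA was in 4.27% at members, 6.39% at the others and 13.3% of all genes. The string TGACGTCA was in 2.93% at members, 3.36% at the others and 2.33% of all genes, and CAGATG in 7.73%, 11.2% and 14.9%. Each string was counted on its own, so matches of different strings can share bases, and a match is a description of letters and not a bound site. The shares were not matched for base composition, with a median GC content of 69.0% at members and 61.7% at the others. How much of each difference follows from GC content was not tested.

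Broad regions were strong but not the strongest. The fold and −log10 q deposited with each peak are the authors' own and are used only within a list. The fold of members had a median of 7.90 in CSMN, 11.3 in CPN 1 and 10.9 in CPN 2, or percentiles of 90.7, 90.5 and 90.9 within the own list. None of the 464 regions of highest fold was a member in any library, and the best rank of a member by fold was 869 in CSMN, 1456 in CPN 1 and 1721 in CPN 2. Median fold was lower in members than at 1000 to 1249 bp, where it was 8.90 in CSMN, 13.8 in CPN 1 and 13.6 in CPN 2. At 750 to 999 bp it was 8.20, 13.6 and 13.6. Narrow start regions could exceed members: H4c18 had a fold of 18.0 in CSMN, 40.6 in CPN 1 and 44.3 in CPN 2 at widths of 409 bp, 388 bp and 339 bp.

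**Figure D5:**
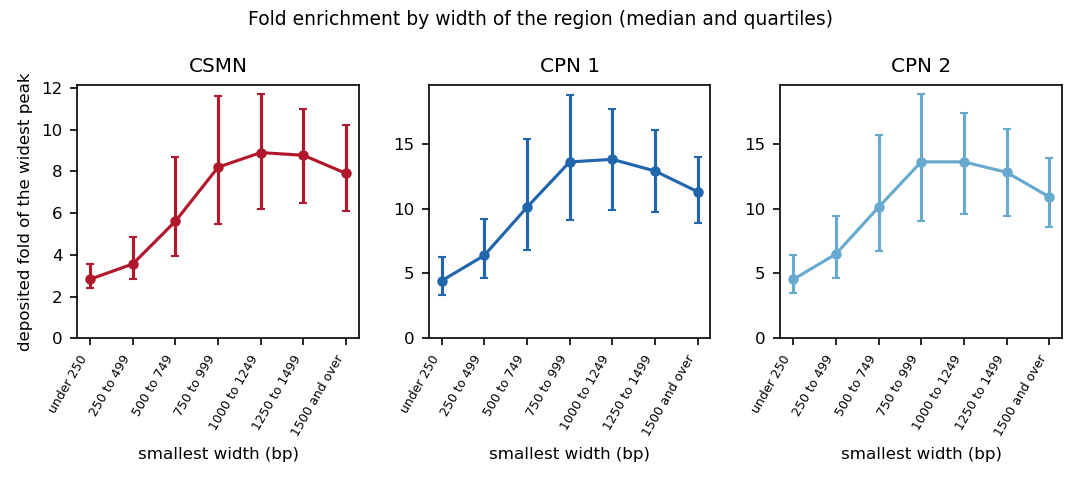
Fold enrichment deposited with the widest peak of each shared region, by the smallest width over the 3 libraries in bp, as medians with quartiles in CSMN, CPN 1 and CPN 2. In CSMN the median is 8.90 at 1000 to 1249 bp and 7.90 at 1500 bp and over. Folds are not comparable between panels.

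Gene lists were read against a background of 526 of 21900 protein-coding genes (2.40%) with a member in the body or within 1000 bp. No list was tested for enrichment, and long genes and CpG-rich starts, which members favoured, were not matched between lists. Of 40 chromatin regulators, 8 held a member (20.0%). Kmt2e, a trithorax-family protein, measured 2610 bp in CSMN, 2151 bp in CPN 1 and 2014 bp in CPN 2. Kmt2c, a histone H3 lysine methyltransferase, measured 2541 bp, 2529 bp and 1934 bp. Chd7, a chromatin remodeller, measured 1873 bp, 2362 bp and 2292 bp, and was narrower in CSMN than in both CPN libraries. Setd5, Bmi1 of Polycomb repressive complex 1, the acetyltransferase gene Ep300, Ezh2 of Polycomb repressive complex 2 and Ash1l had smallest widths of 1606 bp, 1589 bp, 1553 bp, 1537 bp and 1509 bp. Lowering the minimum to 1000 bp gave 27 of the 40, among them Smarca4, Dnmt3a and Satb1, where 17.8% of all protein-coding genes had such a region.

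Of 41 transcription factors of cortical projection neurons, 5 held a member (12.2%). Besides Sox11, these included Bhlhe22, a bHLH repressor, with 1961 bp in CSMN, 2060 bp in CPN 1 and 1959 bp in CPN 2, and Cux1 with 1605 bp, 2149 bp and 1912 bp. Zbtb20 had 1501 bp, 1542 bp and 1503 bp. Fezf2 held no member, and its widest shared region, beside the gene at chr14:12337494-12338697, measured 1151 bp in CSMN, 1137 bp in CPN 1 and 1200 bp in CPN 2. Bcl11b had 8 shared regions and no member, with a widest of 642 bp, 684 bp and 725 bp. Near Mir193b the shared region measured 475 bp in CSMN, 1246 bp in CPN 1 and 814 bp in CPN 2, and no shared region lay within 1000 bp of Mir365-1.

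Of 24 CPN and upper-layer markers, 4 held a member (16.7%), among them Cited2, Nectin3 and Cux1. Of 21 CSMN and subcerebral markers, 2 did (9.52%, Bhlhe22 and Crim1). Both are to be read beside the 2.40% of all protein-coding genes. Members are by rule broad in both cell types, so these counts do not compare CPN with CSMN. Cited2, a transcriptional coactivator of upper-layer neurons, measured 2744 bp in CSMN, 2795 bp in CPN 1 and 1906 bp in CPN 2. Crim1, a transmembrane protein of corticospinal neurons, measured 2024 bp, 1961 bp and 1734 bp.

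The other neuronal and general lists had between 1 and 3 genes with a member each, to be read against the same 2.40%. Pan-neuronal genes had 2 of 30 (6.67%), among them Nefl, the light neurofilament, with 1555 bp in CSMN, 1547 bp in CPN 1 and 1565 bp in CPN 2. Axon guidance genes had 1 of 30 (3.33%), the semaphorin receptor Nrp1, with 1576 bp, 2614 bp and 1505 bp. Immediate early genes had 2 of 30 (6.67%), Ier5 with a smallest width of 1910 bp and the phosphatase gene Dusp4 with 1650 bp. RNA-binding proteins had 3 of 40 (7.50%), Srsf2, Hnrnpa2b1 and Ewsr1. These genes share their regions with the starts of Mfsd11, Cbx3 and Rhbdd3, in that order. Ribosomal protein genes had 1 of 40 (2.50%, Rpl7), housekeeping genes 1 of 30 (3.33%, Hsp90ab1) and growth factor feedback regulators 1 of 30 (3.33%, Trib1).

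The list of developmental regulators of other tissues, which includes Hox, Gata and Pax genes, had 0 of 45 genes with a member, beside the 2.40%. At a minimum of 1000 bp the count was still 0 of 45, beside 17.8% of protein-coding genes. Both counts hold for the listed genes only. Outside the list, the transcription factor genes Meox2 and Ikzf1 had starts in members with smallest widths of 1562 bp and 1515 bp. A peak of any width within 1000 bp of an end was present at 33 of the 45 in CSMN, 41 in CPN 1 and 41 in CPN 2, where all protein-coding genes had 69.9%, 72.1% and 73.2%. Interneuron markers had 0 of 20, and astrocyte, oligodendrocyte, microglia and endothelial markers had 0 of 12 each. Lists of 12, 20 or 45 genes are too short for 0 to differ clearly from 2.40%. At a minimum of 1000 bp, the interneuron markers Adarb2, Dlx2, Maf and Sp8 held a region. So did Cldn5, Flt1, Kdr and Vtn of the endothelial and mural list and Glul of the astrocyte list, but no oligodendrocyte or microglia marker. A peak at an end was present at 19 interneuron markers in CSMN, 18 in CPN 1 and 20 in CPN 2, and at all 12 endothelial markers in every library. For astrocyte markers the counts were 10 in CSMN, 10 in CPN 1 and 11 in CPN 2, for oligodendrocyte markers 7, 9 and 9, and for microglia markers 6, 8 and 7. The part of other cells in the libraries was not tested. Noncoding RNA genes and hosts had 0 of 30, to which the share of protein-coding genes does not apply.

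A few broad regions lay away from every protein-coding end. After the Rn18s-rs5 region the widest were Cpeb2, 7102 bp inside the gene and at the start of the lncRNA Gm7854, and Kcnn2, 125276 bp inside its gene, in a region that holds the whole lncRNA gene Gm32139 of chromosome 18, whose starts are not in the table. Next were one near Ppara (2306 bp in CSMN, 2167 bp in CPN 1 and 1879 bp in CPN 2) and those inside Ism1 and Zmiz1, the last with 1892 bp, 2081 bp and 1801 bp. A region nearest to Ccdc54 had 2060 bp, 2310 bp and 1799 bp and lay outside genes, one near Wnt11 held the start of the lncRNA Gm39054, and one inside Stox2 had 2197 bp, 2336 bp and 1702 bp. The start table holds few starts per gene, so a start of an alternative transcript can lie in such a region without being counted. LncRNA starts lay in 66 members of any class (14.2%), against 3.24% of the other regions (difference 11.0 points, 8.09 to 14.5). Here too a wider region is more likely to hold a start.

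Widths differed between libraries, and since the rule used width and CSMN had 1 library, the counts are a description and no test was made. CSMN was the widest library in 187 members (40.3%), against 30.7% of all shared regions. CPN 1 was the widest in 241 (51.9%), against 54.3%, and CPN 2 in 33 (7.11%), against 14.3%. This count depended on the scale: by percentile of width within each list, CSMN led in 35 members (7.54%). Peaks of at least 1500 bp made up 0.362% of the CPN 2 list and 1.46% of the CSMN list. A wide peak thus ranks higher in CPN 2 on that scale. The difference between the lists and that between the cell types cannot be told apart here. The median difference of CSMN minus CPN 1 was −13.0 bp, and that of CSMN minus CPN 2 was 83.5 bp. CPN 1 minus CPN 2, a difference within 1 cell type, had a median of 89.5 bp. Without regard to sign, the median differences were 68.0 bp for CSMN against CPN 1, 108 bp for CSMN against CPN 2 and 92.5 bp for CPN 1 against CPN 2.

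CSMN exceeded the wider CPN library by the most at Adgrl2, a latrophilin, with 3282 bp in CSMN, 2185 bp in CPN 1 and 1520 bp in CPN 2. Next by this difference was Bhlhe40, a bHLH repressor, with 2779 bp, 1945 bp and 1770 bp. Nrg3, a neuregulin, had 2607 bp, 1811 bp and 1695 bp, B3gnt2 had 2276 bp, 1744 bp and 1617 bp, and Fbxl14 had 2452 bp, 1972 bp and 1658 bp. In the other direction, after the Rn18s-rs5 region, stood Chst15 with 1584 bp in CSMN, 2027 bp in CPN 1 and 2083 bp in CPN 2, Chd7, Map3k1 with 1758 bp, 2149 bp and 2139 bp, and Tox2 with 1567 bp, 1915 bp and 2008 bp. In these 4 genes both CPN libraries were wider than CSMN. The CPN libraries differed most from each other at Cdk6, a cell cycle kinase, with 1800 bp in CSMN, 3646 bp in CPN 1 and 2129 bp in CPN 2. LOC108167694 followed with 3190 bp in CPN 1 and 2003 bp in CPN 2, Klf13 with 2712 bp and 1554 bp, Nrp1 with the widths given above, and Camk2n2 with 2897 bp and 1830 bp. At several of these genes the region was a single peak in one library and several peaks in another, so the gaps in the widest peak were partly gaps in how a region was divided. The region of Adgrl2 was 1 peak in CSMN, 2 in CPN 1 and 3 in CPN 2, and its summed peak widths were 3282 bp, 3081 bp and 2461 bp. That of Cdk6 was 2 peaks in CSMN, 1 in CPN 1 and 3 in CPN 2, with sums of 3153 bp, 3646 bp and 3086 bp. Chst15, Chd7 and Map3k1 had 2 peaks in CSMN and 1 in each CPN library, and Tox2 had 1 in all 3.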

How the data were processed

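The 3 deposited peak lists (1 CSMN library, 2 CPN libraries) were used as they stood. The submitters' processing notes list the build mm10, MACS2 2.2.7.1, BWA 0.7.17 and also bedtools 2.29.2. Read filters, duplicate removal, the transposase shift and the caller's mode are not stated in the sources. Each list was treated as called on its own library by the authors, since its peak names bear that library's name. Each deposited peak has the authors' fold enrichment (a ratio), a −log10 p and −log10 q, a score that equals 10 times the −log10 q cut to a whole number in at least 99.9% of peaks, and a summit offset in bp. The lowest deposited −log10 q was 1.30 to 1.31. Read depth is unknown, since the lists hold no counts.

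Peaks overlapping by at least 1 bp were merged with Python 3.11.15, numpy 2.4.6 and pandas 2.3.3, and bedtools 2.31.1 gave the same 204313 regions. Gene limits, starts, strands and promoter sequences came from RefSeq tables of GRCm38.p6. The tables gave no start for any of the 511 protein-coding genes of chromosome 18, where both ends were counted. Of 499 list entries, all matched the gene table. Shares carry Wilson 95% intervals and differences Newcombe 95% intervals (scipy 1.17.1 and own code). The merging and start counting were tested on simulated data. Sorts are biological replicates per the labels. No p-value was computed.

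The members and the gene lists were chosen with earlier results of these data known. The regions named are the 25 with the largest smallest width, the 5 just inside and the 5 just outside 1500 bp, the 10 widest away from protein-coding ends, the 5 that differ most in each direction between CSMN and CPN and between the CPN libraries, and up to 6 per gene list, with Fezf2, Mir193b, Mir365-1 and Bcl11b always. A few items named by this rule are not reported here. The rule also asked for the genes with the most members, but no protein-coding gene had more than 1. Alternatives were other widths, distances, gene types, list lengths, merging rules, promoter windows and leaving out either CPN library.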

Additional observations from a re-analysis of the deposited data

How the results depend on the processing

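The number of broad regions depended most on the width minimum, with 3661 at 1000 bp and 37 at 2000 bp against 464, and summing all peaks of a region gave 813. Leaving out a CPN library gave 471 regions without CPN 1 and 1059 without CPN 2. A −log10 q of at least 5, lists of equal length and merging at 100 bp overlap gave 464 each. Every member's widest peak had a −log10 q above 5 in each library, so that minimum could remove no member. Equal lengths left the CSMN list whole and kept the CPN peaks of highest −log10 p. The lowest −log10 q of a member was 20.3 in CPN 1 and 22.2 in CPN 2, so this setting was hardly able to remove one. The share at a gene start or end was 87.8% at 1000 bp and 94.6% with genes of every type, and ranged from 91.7% to 91.9% without either CPN library. The share holding a start was 59.5% of the 37 regions at 2000 bp, and ranged from 69.2% to 72.0% without either CPN library. It was 90.0% among members nearest to a gene with a known strand, an alternative chosen after seeing the data, as were the nuclear genome without the Rn18s-rs5 region and the widest 1% of each list (495 regions, 93.3% and 70.5%). Distances of 500 and 2000 bp kept both shares within their intervals. List genes with a member numbered 27, against 160 at 1000 bp and 2 at 2000 bp (Kmt2e and Sox11). Widening the body to 10000 bp left 27. CpG-rich promoters were 77.0% with starts within 1000 bp of a member. CSMN was the widest in 40.3% of members, against 7.54% by percentile within each list. With CPN 1 as the only CPN library, CSMN was the wider in 45.9% of the 1059 regions then chosen. With CPN 2 as the only one, it was the wider in 76.6% of the 471 then chosen. The median percentile of fold in CSMN was 92.3 at 1000 bp and 90.6 at 2000 bp. No paired analysis was possible because CSMN has a single library, so the groups share only replicate number 1, and no test was run. Width in a called list depends on depth and on the caller's settings, which are unknown here.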

Other observations

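Small RNA genes lay inside some broad regions. Of 1228 miRNA genes in the reference table, 9 lay inside a member, among them Mir1903 in the region of Nrp1, Mir2861 and Mir3960 in that of the transcription kinase gene Cdk9, and Mir5130 in that of Kctd12. Of 408 nuclear tRNA genes, 7 lay inside 5 members. The regions at Agbl5 and near Wnt11 held 2 tRNA genes each, and those at Smarcc2, a chromatin remodelling subunit, at Lasp1 and near Tgds held 1 each. The same counts over the other shared regions are not given here. These counts are thus a list of positions and not a feature of broad regions.

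Gene families named by symbol had 0 to 7 genes with a member each. Solute carriers (Slc) had 7 of 375 genes (1.87%), zinc finger genes named Zfp 7 of 397 (1.76%) and phosphatase genes named Ppp 4 of 77 (5.19%), against 2.40% of all protein-coding genes. Genes named Zbtb had 2 of 41 (4.88%), Ube 2 of 42 (4.76%) and Trim 3 of 68 (4.41%). The largest families with no member were the olfactory receptors (Olfr, 0 of 1110) and vomeronasal receptors (Vmn, 0 of 355). Members lay on every autosome, with 12 to 42 each, and 11 lay on chromosome X. Paired neighbours within 100 kb included Ctcf, which encodes the insulator-binding protein, with the region of Acd and Pard6a, and Bmi1 with a region outside genes next to it.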
